A study of Arabidopsis thaliana with 18 samples.

Results

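Transcripts whose signal was higher under forward tilt in the roots of one *Arabidopsis thaliana* ecotype, Wassilewskija (WS), and not in those of the other, Columbia (Col-0), are described here. Whole roots of wild type seedlings aged 8 days, grown in constant light, were measured on 18 ATH1 expression arrays from Affymetrix, 3 in each of 6 groups. The groups were WS and Col-0 at 3 angles of the growth plate (Agp). At Agp 90° plates stood upright for 8 days, at Agp 45° they were upright for 3 days and slanted backward for 5 days, and at Agp 135° they were upright for 3 days and slanted forward for 5 days. No mutant, transgene or chemical treatment was used. The RNA of 5 roots went into each array, and nothing says that the arrays of a group came from separate cultures, so p-values cover only the spread between such pools.

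Values are MAS5 signals on a linear scale as the authors deposited them, and log2 changes were taken on log2(signal + 32) after quantile normalization. A change of a signal near or below 32 is therefore understated. A probe set is a group of oligonucleotides read together, and some probe sets can bind more than 1 transcript. A probe set belonged to the set when its mean log2 value at Agp 135° lay at least 0.7 above that at Agp 90° in WS. In Col-0 the mean at Agp 135° had to lie at most 0.1 above that at Agp 90°. Of 22746 probe sets, 87 met the first condition and 38 met both. Of these, 2 were left out because they were over 1 higher in WS than in Col-0 at all 3 angles (*AT3G28320* and *AT2G37870*), and 3 were left out by name (*SWEET11*, *MGL* and *AT3G28310*), which left 33 members. A single gene is annotated for 15 of them, several genes for 1 and none here for 17, which are given by probe set identifier. Of the 15 genes, 13 are listed by RefSeq as protein coding and 2, *AT4G19790* and *AT5G32430*, as pseudogenes.

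A root that meets hard agar cannot grow straight down, and its path may slant to one side (skewing) or take on a series of bends (waving). WS roots are known to skew strongly and Col-0 roots weakly, and forward tilt was used because waving is reduced there. Plant roots depend on sugar sent from the shoot, and salt, low sugar and darkness each switch on known sets of transcripts, among them *SIS* (Salt Induced Serine rich), a gene of salt tolerance.

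The members were chosen by these forward changes, which are therefore a description with no test. In WS the change ran from 0.71 to 2.07 with a median of 0.93, and in Col-0 from -0.998 to 0.08 with a median of -0.07. Over all probe sets the medians were -0.0012 in WS and -0.0047 in Col-0. The members nearest inside the WS limit were *AT5G38750* (0.71), *AT5G55040* (0.72) and probe set 250165_at (0.72), and the nearest outside it were 263295_at (0.70, below the limit before rounding), *AT1G60010* (0.69) and *AT3G43950* (0.69). At the Col-0 limit the nearest inside were 264524_at (0.08), *AT4G16000* (0.08) and *AT1G21520* (0.07), and the nearest outside were 250007_at (0.11), 265478_at (0.12) and *GAT1_2.1* (0.15), whose WS change was 1.38.

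**Figure D1:**
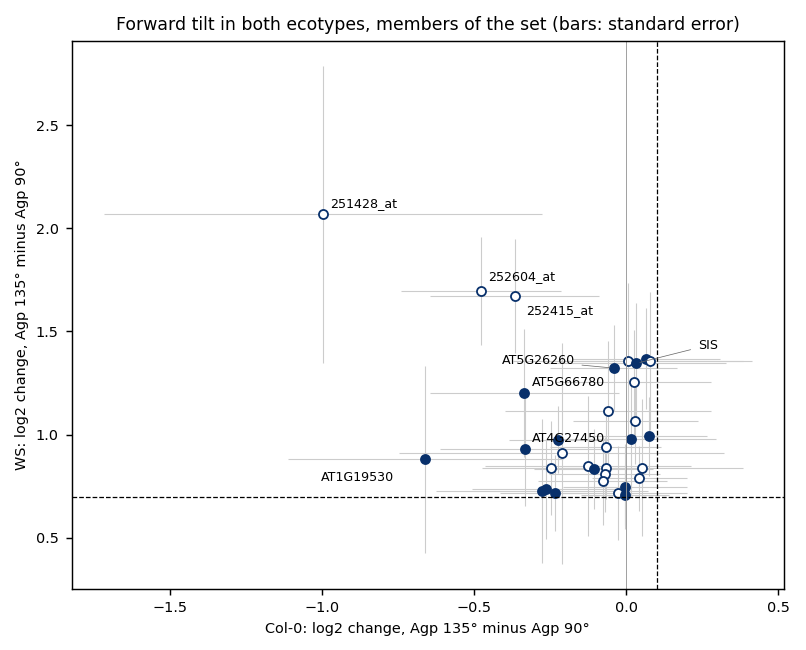
Change in log2 signal from Agp 90° to Agp 135° in Col-0 (x axis) and WS (y axis) for the 33 members, with the standard errors of the limma model as bars. Filled points have a single gene and open points have none or several, and dashed lines mark the limits of 0.7 and 0.1; 251428_at (2.07 in WS, -0.998 in Col-0) has the widest bars, with a standard error of 0.72.

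Which members met the Col-0 limit, and which met the WS limit, depended on single arrays. Without Col-0 Agp 90° replicate 2, 22 of the 33 members still met both conditions, without Col-0 Agp 135° replicate 1, 23 did, and without Col-0 Agp 90° replicate 1, 26 did. In the first case 11 members, in the second 10 and in the third 7 had a Col-0 change above 0.1, the highest being 0.35, 0.39 and 0.34. With any 1 array left out the WS change of all 33 stayed above 0, and it stayed above 0.5 for all of them except 1, *ARR15*, without WS Agp 90° replicate 3 (0.27). With any 1 of the 18 arrays left out, 7 members stayed in the set every time, namely *AT5G66780*, *AT4G27450*, *AT1G15330*, 248622_at, 251428_at, 252415_at and 252604_at. The Col-0 changes lay around 0, and their median of -0.07 became 0.02 without Col-0 Agp 135° replicate 1. *SIS* stayed in 15 of 18 cases, since its Col-0 change was 0.18 without Col-0 Agp 90° replicate 1, 0.17 without replicate 2 of that group and 0.29 without Col-0 Agp 135° replicate 1. With a pseudocount of 100 in place of 32, 16 members met the rule, and with a pseudocount of 1, 28 did among 720 probe sets.

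*SIS* had signals of 175, 141 and 103 in upright WS roots, 170.0, 169 and 181 at Agp 45° and 586, 230.2 and 453 at Agp 135°. In Col-0 the signals were 182, 178 and 85.6 upright, 169, 176 and 145 at Agp 45° and 91.0, 177 and 185 at Agp 135°. All 3 WS arrays at Agp 135° lay above the other 15, although replicate 2 stood well below its partners. The forward mean was 3.04-fold of the upright mean in WS (423 ± 179.9 against 139 ± 36.0, SD, n = 3) and 1.02-fold in Col-0, and the log2 change in WS was 1.35 (standard error 0.29).

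*AT5G66780*, a gene of unknown function, was measured at 94.4, 76.5 and 29.5 in upright WS roots, at 22.0, 24.4 and 33.1 under backward tilt and at 181, 119 and 277 under forward tilt. Its Col-0 signals were 31.1, 38.9 and 32.7 upright, 14.4, 15.5 and 46.1 at Agp 45° and 20.1, 42.5 and 3.96 at Agp 135°. No Col-0 array exceeded 46.1, and the WS forward arrays lay above the other 15. Its mean was 2.88-fold of the upright level in WS and 0.648-fold in Col-0, and log2 changes were 1.20 and -0.34 (standard error 0.31 for both).

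*AT4G27450* encodes a protein of the aluminium-induced family with YGL and LRDR motifs, and its signals in WS were 594, 407 and 487 upright, 956, 736 and 788 at Agp 45° and 1169, 816 and 920.3 at Agp 135°. In Col-0 they were 704, 1009 and 514, then 592, 807 and 736, then 323, 679 and 796 at the same angles. Both tilted WS groups lay above the upright WS group, with means of 827 and 968 against 496, and the Col-0 groups overlapped one another. *AT1G15330*, whose product carries cystathionine beta-synthase (CBS) domains of the kind found in the gamma subunits of the energy-sensing kinase SnRK1, had WS signals of 94.1, 90.5 and 80.4 upright, 106, 77.5 and 77.3 at Agp 45° and 222, 179.6 and 213 at Agp 135°. Its Col-0 signals ran from 49.5 to 122 over the 9 arrays. Its log2 change in WS was 0.98 under forward tilt and 0.0026 under backward tilt (standard error 0.16 for both), and its WS forward arrays were above the other 15.

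*AT5G26260*, a gene for a member of the TRAF-like family, differed from the rest in level between the ecotypes. In WS it read 386, 381 and 205 upright, 178, 251 and 199.5 at Agp 45° and 691, 1003 and 822 at Agp 135°. In Col-0 it read 2085, 1445 and 1464, then 1056, 1109 and 1293, then 1750.4, 1360.5 and 1683. All 9 Col-0 arrays lay above all 9 WS arrays, and the log2 difference, WS minus Col-0, was -2.25 upright and -0.89 at Agp 135°.

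*ARR15*, a type-A response regulator that dampens cytokinin signalling, had WS signals of 54.2, 68.2 and 3.77 upright, 5.18, 40.02 and 54.5 at Agp 45° and 84.8, 79.3 and 81.8 at Agp 135°. The Col-0 signals were 128, 95.4 and 80.2, then 55.3, 46.9 and 116, then 75.0, 94.4 and 60.8. The WS forward arrays were the most alike and overlapped Col-0 at all 3 angles. Its WS change of 0.73 rested on WS Agp 90° replicate 3, without which it was 0.27.

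*AT1G19530* had WS signals of 356, 362 and 191 upright, 409, 549 and 442 at Agp 45° and 703, 516 and 500.2 at Agp 135°. Its Col-0 signals were 493, 879 and 269, then 458, 1058 and 481, then 118, 419 and 502, so the Col-0 groups spread widely and overlapped. *AT1G21520* was dim in 5 groups, between 5.02 and 36.9, and read 86.5, 71.1 and 115 in WS at Agp 135°. *AT4G16000* read 21.4, 67.6 and 61.7 in upright WS roots and 121, 111 and 148 under forward tilt, above the other 15 arrays, of which the highest was 76.9. Signals of this size are close to the value of 32 added before the log2, and the fold of the deposited means (5.66 for *AT1G21520* and 2.52 for *AT4G16000*) exceeds the fold on the log2 scale.

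**Figure D2:**
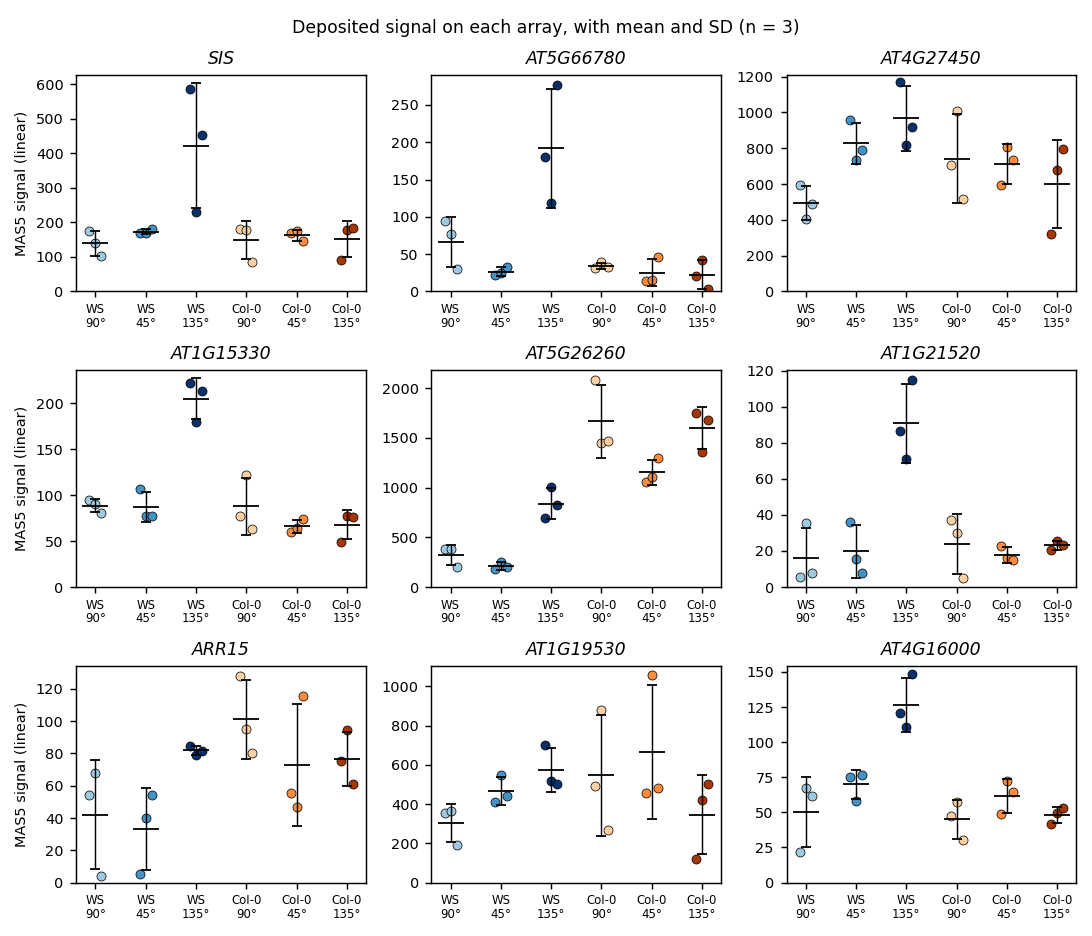
Deposited MAS5 signal (y axis, linear scale from 0) of 9 named members on each of the 18 arrays, by ecotype and Agp (x axis), with points for arrays, horizontal bars for means and error bars for the SD (n = 3). In WS at Agp 135°, *SIS* (230.2 to 586), *AT5G66780*, *AT1G15330*, *AT1G21520* and *AT4G16000* lie above every other group, whereas *AT5G26260* (691 to 1003) stays below all Col-0 arrays.

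The other named members were dim. *AT5G45310* read 33.1, 12.3 and 22.1 in upright WS roots, 34.1, 38.8 and 22.4 at Agp 45° and 99.4, 44.2 and 95.3 at Agp 135°, and its Col-0 signals were 32.8, 59.3 and 2.81, then 49.3, 41.7 and 37.5, then 16.5, 31.2 and 31.0. *AT3G03290* read 6.84, 3.86 and 13.7 in upright WS roots, 15.4, 41.2 and 3.90 at Agp 45° and 38.0, 33.7 and 40.9 at Agp 135°, with Col-0 signals of 37.1, 29.3 and 2.79, then 22.0, 24.1 and 21.1, then 18.3, 2.58 and 13.5. In both, the WS forward arrays were above the upright WS arrays and overlapped other groups. *AT5G55040*, which encodes a bromodomain protein, a reader of acetylated histones, had WS signals of 4.01, 4.74 and 17.2 upright, 25.1, 33.4 and 38.9 at Agp 45° and 44.3, 28.8 and 39.1 at Agp 135°. Its Col-0 signals were 18.4, 3.31 and 19.4, then 11.6, 2.27 and 19.2, then 3.00, 16.1 and 1.95. Both tilted WS groups of this gene lay above all 9 Col-0 arrays.

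Among the probe sets without a single gene name, the 3 that had the largest excess of the WS change over the Col-0 change were chosen after their values were seen. Probe set 252415_at read 153, 212 and 139 in upright WS roots, 40.5, 33.9 and 25.3 under backward tilt and 769, 364 and 751 under forward tilt. In Col-0 it read 260.3, 244 and 183 upright, 50.8, 41.8 and 13.1 at Agp 45° and 118, 193 and 208 at Agp 135°. The 3 WS groups did not overlap, and the backward arrays were the lowest in both ecotypes. Probe set 251428_at was uneven, with 259.5, 107 and 1253 in WS under forward tilt and 385, 108 and 11.6 in upright Col-0 roots, and its other 12 arrays lay between 5.54 and 102. Probe set 252604_at read 100, 60.9 and 179 in WS under forward tilt, and its other 15 arrays lay between 3.81 and 46.6.

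Over the whole set, the 3 WS forward arrays lay above the 3 upright WS arrays for 32 of 33 members, *AT5G32430* being the exception, against a background of 8.09% of all probe sets. They lay above all other 15 arrays for 10 members (background 0.677%), of which 5 have a single gene name (*SIS*, *AT5G66780*, *AT1G15330*, *AT1G21520* and *AT4G16000*). The rule used these arrays, so nothing is read from either count. Upright WS roots had a lower mean than upright Col-0 roots for 27 members and a higher one for 6, and under forward tilt WS was higher for 29 and lower for 4. In 9 members the upright gap was over 0.7 in favour of Col-0, and in 17 the forward gap was over 0.7 in favour of WS. The median difference, WS minus Col-0, was -0.37 upright and 0.75 forward over the members, and 0.02 and 0.03 over all probe sets. A low upright and a high forward WS value favour membership, so nothing is read from these counts and medians. For *SIS* the difference, WS minus Col-0, was -0.03 upright and 1.28 under forward tilt, whereas for *ARR15* it was -0.97 upright and 0.03 under forward tilt. The mean signal of upright WS roots was under 32 for 10 members, and the WS forward mean was under 100 for 11.

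The comparison that the rule left most free is that of the ecotypes under backward tilt. The Agp 45° arrays entered the rule only through the probe sets over 1 higher in WS at all 3 angles. The probe sets left out differed there, WS minus Col-0, by 2.38 (*AT2G37870*), 1.80 (*AT3G28320*), 1.14 (*SWEET11*), 0.73 (*AT3G28310*) and -0.03 (*MGL*), the last 3 being left out by name. Leaving them out moves the balance of directions towards lower in WS, so nothing is read from that balance. A limma model with 6 group means over all 18 arrays called 8 of the 33 members at an adjusted p under 0.05, where 13.0% of all probe sets were called. WS was lower for 5 of the 8 (background 7.06%) and higher for 3 (background 5.90%), and 12 members had an unadjusted p under 0.05, where 25.7% of all probe sets did. The median difference, WS minus Col-0, was -0.11 over the members and 0.04 over all probe sets. *SIS* (0.12, standard error 0.29, adjusted p = 0.845 from limma) and *AT5G66780* (-0.06, standard error 0.31, adjusted p = 0.929) did not pass the test. All WS arrays lay below all Col-0 arrays for 9 members (background 13.4%) and above them for 6 (background 17.5%). Probe sequences were not at hand, so whether the probes match WS and Col-0 transcripts equally well was not tested. A call between ecotypes is thus a difference in signal.

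*AT5G26260* was lower in WS under backward tilt by a log2 difference of -2.25 (standard error 0.21, adjusted p = 1.59e-06 from limma), with 178 to 251 in WS against 1056 to 1293 in Col-0. *AT5G38750* was lower by -0.65 (standard error 0.14, adjusted p = 0.00665), from WS signals of 13.0, 10.9 and 1.77 and Col-0 signals of 33.1, 27.2 and 19.2. These are all near the added value of 32, and its other signals were 15.9, 6.53 and 2.39 upright and 43.5, 34.9 and 32.7 forward in WS, and 17.2, 24.9 and 17.1 upright and 24.3, 17.9 and 16.0 forward in Col-0. For both genes the 2 groups at Agp 45° did not overlap, and both calls held under every alternative that gave a value, *AT5G38750* being too dim for the one without the 40% dimmest probe sets.

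The pseudogenes differed in opposite directions. *AT5G32430* was lower in WS under backward tilt (-0.77, standard error 0.20, adjusted p = 0.0204 from limma), with 7.12, 11.2 and 24.2 in WS and 40.1, 38.0 and 40.6 in Col-0. Its remaining signals were 15.7, 47.3 and 8.37 upright and 85.5, 55.2 and 43.2 forward in WS, and 34.7, 32.8 and 30.1 upright and 27.3, 36.3 and 30.2 forward in Col-0. *AT4G19790* was higher in WS (0.69, standard error 0.20, adjusted p = 0.0273), with 38.5, 63.3 and 40.5 in WS and 17.5, 3.12 and 24.8 in Col-0. It read 29.6, 16.6 and 8.39 upright and 61.8, 49.6 and 68.0 forward in WS, and 60.0, 52.5 and 35.4 upright and 44.4, 50.9 and 32.2 forward in Col-0. Its probe set is of the kind that can bind more than 1 transcript, so the source of this signal is uncertain. Over the alternatives the adjusted p from limma reached 0.0841 for *AT5G32430* and 0.148 for *AT4G19790*.

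The other 4 called members have no gene name here. Probe sets 259517_at (-0.72, adjusted p = 0.0289 from limma) and 255723_at (-0.69, adjusted p = 0.00752) were lower in WS, and 247095_at (0.61, adjusted p = 0.0123) and 250165_at (0.82, adjusted p = 0.0253) were higher. The adjusted p from limma rose in some alternatives to 0.0852 for 259517_at, 0.0758 for 247095_at and 0.112 for 250165_at. The call of 255723_at held in all 29 alternatives. Probe set 250165_at read 446, 293 and 317 in WS and 245, 165 and 166 in Col-0 under backward tilt, and its WS signals were as high there as under forward tilt (401, 301 and 327). The count of 8 was 3 without Col-0 Agp 45° replicate 2, where 9.50% of all probe sets were called. It was 5 without WS Agp 45° replicate 1 (10.5% of all probe sets), WS Agp 45° replicate 2 (10.1%) or Col-0 Agp 45° replicate 3 (10.5%). The share over all probe sets thus fell as well.

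**Figure D3:**
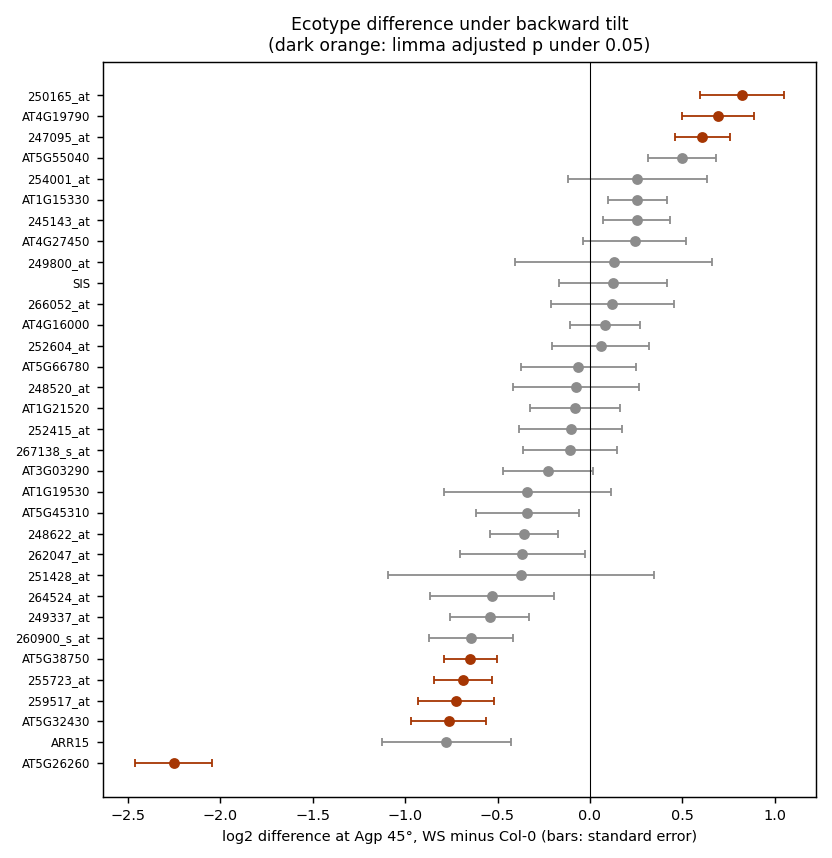
Log2 difference at Agp 45°, WS minus Col-0 (x axis), for the 33 members (y axis), with standard errors of the limma model as bars. Dark orange marks the 8 members with an adjusted p under 0.05; *AT5G26260* lies at -2.25, the uncalled members lie between -0.78 and 0.50, and 250165_at is the highest at 0.82.

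Backward tilt was also set against upright growth, a comparison that shares the upright arrays with the rule. A low upright WS value favoured membership and also raises the change in WS. A high upright Col-0 value favoured membership too, and it lowers the change in Col-0. Both raise the WS change less the Col-0 change. The values in this paragraph, with their directions, are therefore a description from which nothing is read. In WS the change from Agp 90° to Agp 45° had a median of 0.13 over the members and 0.0095 over all probe sets, and in Col-0 the medians were -0.14 and -0.0042. The WS mean was within 0.7 of the upright mean for 27 members, 0.7 or more above it for 3 (background 0.255%; *AT4G27450* with 0.72, 249800_at with 1.11 and 250165_at with 0.77) and 0.7 or more below it for 3 (background 0.813%; 252415_at with -1.66, 251428_at with -0.81 and *AT5G66780* with -0.73). By limma's adjusted p, 1 of 33 was lower in WS and 0 were higher (background 0.985% in either direction). By the unadjusted p, 5 were higher and 4 lower in WS (background 12.5% in either direction). The one called was 252415_at, which was also the one lower call in Col-0 (-1.92, background 0.0220% in either direction). In Col-0 the unadjusted p gave 0 members higher and 6 lower (background 7.35% in either direction). The Col-0 call of 252415_at was lost in 13 of 29 alternatives, with an adjusted p from limma of up to 0.524. The difference between the backward changes of the ecotypes passed limma's adjusted p for 0 members (background 0.00%, 0 of 22746), and 4 members had an unadjusted p under 0.05, all with a higher change in WS (background 7.35% in either direction).

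**Figure D4:**
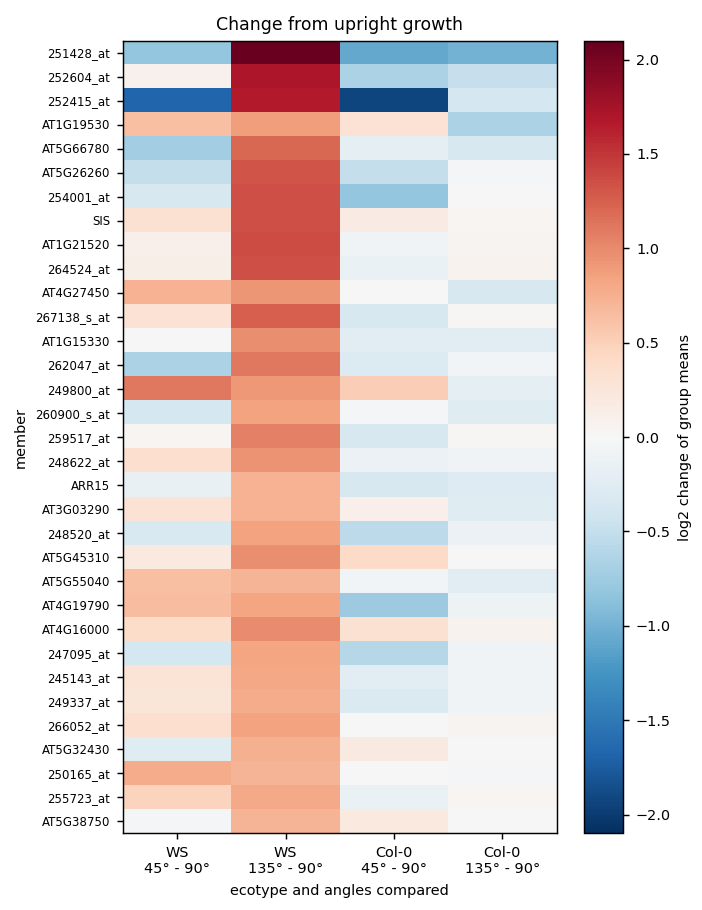
Log2 change of group means from Agp 90° (colour, red higher and blue lower) for the 33 members (y axis, ordered by the excess of the WS forward change over that in Col-0) in each ecotype at Agp 45° and Agp 135° (x axis). The WS column at Agp 135° chose the members and is red throughout (0.71 to 2.07), and 252415_at is blue at Agp 45° in both ecotypes (-1.66 and -1.92).

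The rule took group means, which are made of these same arrays. It can therefore favour probe sets that 1 upright or forward array moved together, so the values here are not free of the rule. Over 528 pairs of members, the correlation of the deviations from the group means on 18 arrays had a mean of 0.24, against 0.00034 over pairs of all probe sets, and 401 of the pairs were above 0. The closest pairs were *SIS* with 264524_at (0.89), 248622_at with 249337_at (0.89) and, among genes with a name, *AT4G27450* with *AT1G15330* (0.84). These points share libraries, and the rule used the same arrays, so r is a description from which nothing is read. Quantile normalization gives every array the same distribution, which holds the deviations over all probe sets level. The value over all probe sets is therefore near 0 by construction and is no independent background. On Col-0 Agp 90° replicate 3, 30 of 33 members lay below the mean of their group, and on WS Agp 135° replicate 2, 29 did. Members lay above the group mean on Col-0 Agp 90° replicate 2 in 27 cases and on replicate 1 in 25 cases. At Agp 45°, where the rule hardly used the arrays, they were even, with 14 to 19 members above the group mean. Over all probe sets, which the normalization holds level, between 48.2% and 51.6% lay above the group mean on any array.

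**Figure D5:**
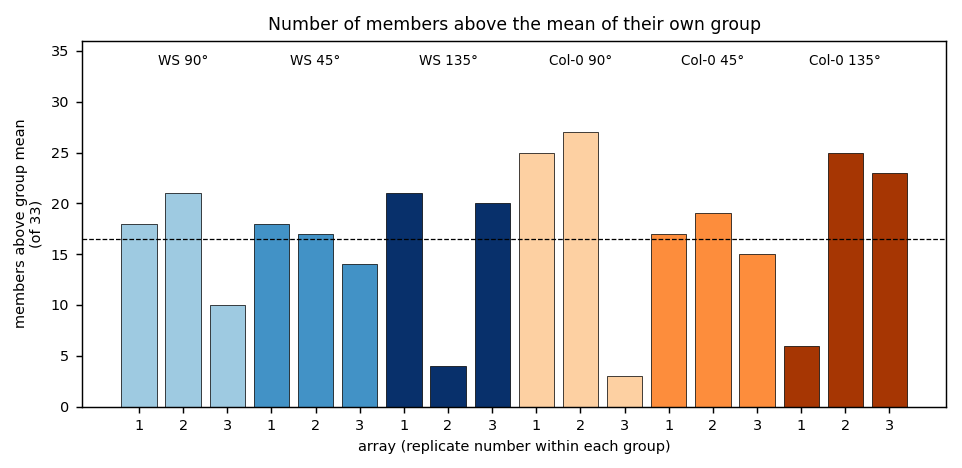
Number of the 33 members above the mean of their own group (y axis, from 0) on each of the 18 arrays (x axis, replicate number within ecotype and Agp), with the dashed line at equal numbers above and below. Col-0 Agp 90° replicate 3 (3 members) and WS Agp 135° replicate 2 (4 members) are the lowest, and Col-0 Agp 90° replicate 2 (27 members) is the highest.

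RNA quality and tissue markers were set beside these values. The array reads actin controls at both ends, and a larger 3'/5' ratio goes with more degraded RNA. For the control with r2 in its name this ratio was 6.06 on Col-0 Agp 90° replicate 2 and 6.05 on WS Agp 90° replicate 3 and lay between 3.85 and 4.76 on the other arrays. For the other actin control the ratio ran from 19.5 to 33.8, Col-0 Agp 90° replicate 2 was again the highest, Col-0 Agp 45° replicate 2 followed at 30.2, and WS Agp 90° replicate 3 stood at 26.2 within the range of the rest. Members lay high on Col-0 Agp 90° replicate 2 (27 of 33 above the group mean) and low on WS Agp 90° replicate 3 (23 of 33 below), and the part of RNA quality in the set was not tested. Without these 2 arrays 15 of the 33 still met the rule, and the WS change stayed above 0.5 for 32. Without the pair highest on the other control 22 met it. The calls between ecotypes under backward tilt were then 4 in place of 8, where 9.80% of all probe sets were called. Of 10 genes of root tissue, *EXPA7* and *EXPA18*, expansins of root hair cells, had a named probe set, with signals of 254.6 to 670.4 and 439 to 1072. Their forward changes were -0.30 and -0.0094 in WS and 0.20 and 0.13 in Col-0, and neither passed limma's adjusted or unadjusted p. Of 8 photosynthesis genes that would mark shoot tissue, 0 did, so shoot tissue was not checked. The 3 lateral root genes had WS forward changes of 0.07 to 0.17 and Col-0 changes of -0.30 to 0.10, with 0 calls by limma's adjusted p in WS (background 0.0528%) or Col-0 (background 0.00%) and 1 lower in Col-0 by the unadjusted p (background 3.18%). In whole roots, fewer cells of a type and less RNA per cell cannot be told apart.

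Most genes of the related pathways had no single-gene probe set in the annotation used here. The 17 members with no gene name and the 1 with several (260900_s_at, annotated to *AT1G21400* and *AT5G34780*) were not matched to any list. Counts of members therefore cover named genes only, and pathway genes among the other members would be missed. Of 34 genes of sugar starvation and darkness, 8 had a single-gene probe set, and 0 of these 8 were members. By limma's adjusted p, 0 of the 8 rose and 0 fell under forward tilt in WS or in Col-0, and by the unadjusted p 4 were higher in WS (background 5.15%) and 0 in Col-0 (background 3.55%). Their changes ran from 0.0096 to 0.63 in WS (median 0.26) and from -0.06 to 0.25 in Col-0 (median 0.11). Of 32 genes of abscisic acid, salt and dehydration, 6 had a probe set, of which *SIS* is a member. The other 5 gave 0 calls in either ecotype, with WS changes of 0.02 to 1.01 (median 0.11, 2 higher by the unadjusted p, background 5.15%) and Col-0 changes of -0.15 to 0.30 (median 0.16, 0 by the unadjusted p). Touch genes (2 of 16 with a probe set) and circadian clock genes (3 of 14) gave 0 calls as well, with 1 higher by the unadjusted p in WS for each list (background 5.15%) and 1 higher in Col-0 for the clock (background 3.55%). No senescence gene of 7 had a named probe set. The 15 named members lie on chromosomes 1 (4 genes), 3 (1 gene), 4 (3 genes) and 5 (7 genes), and the closest pair, *AT1G21520* and *AT1G19530*, is 261 genes apart in the RefSeq order.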

How the data were processed

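The authors deposited MAS5 signal intensity values from Affymetrix Expression Console (version not given in the sources used here), on a linear scale, for 22810 probe sets of the ATH1 array. Each array was already scaled by the authors, and a check gave 500 as the mean of every array after trimming 2% from either tail. The paper's methods describe RMA values, which need the array images and were not computed here. Per the methods, roots were cut from shoots and 5 roots were used for each array.

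A pseudocount of 32 was added to the deposited signal, log2 was taken, the 18 arrays were quantile normalized, and the 64 control probe sets were left out. The limma package (3.58.1, in R 4.3.3) fitted 6 group means per probe set. The residual degrees of freedom were 12 and the prior ones 3.45. Two-sided p-values received a Benjamini-Hochberg adjustment across all 22746 probe sets. The number of arrays limits the precision. Groups and replicate numbers came from the sample titles. The members and gene lists were chosen with earlier results of these data known. Members with 1 annotated gene could be named, with values on every array for the 12 with the largest excess of the WS change and for those called; probe sets outside this rule are marked where they are singled out. Gene names came from the platform annotation through gene identifiers in RefSeq's table (TAIR10.1), and 13513 probe sets have 1 gene, 503 several and 8730 none. The pipeline was tested on simulated data. The alternatives were a pseudocount of 1 or 100, no quantile normalization, controls left out first, the 40% dimmest probe sets left out, an intensity trend, only the compared groups, the replicate block, each array left out and both arrays with the highest r2 actin ratio left out. A planned search of promoter motifs was not run.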

Additional observations from a re-analysis of the deposited data

How the results depend on the processing

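Of 33 probe sets that met the rule, the count was 720 with a pseudocount of 1, 16 with a pseudocount of 100, 53 without quantile normalization, 14 without the 40% dimmest probe sets and 25 to 80 with 1 array left out. Without both arrays on which the members deviated most (Col-0 Agp 90° replicate 3 and WS Agp 135° replicate 2, an alternative chosen after seeing the data) it was 104, with all 33 members among them. The 8 calls between ecotypes under backward tilt were 3 to 9 with 1 array left out (9.26% to 13.4% of all probe sets). Without the 40% dimmest probe sets, 14 members remained and 4 were called (21.2% of the probe sets kept). These 4 were among the 8, and the other called members had been removed as dim. Another alternative chosen after seeing the data left out both arrays highest on the other actin control (Col-0 Agp 90° replicate 2 and Col-0 Agp 45° replicate 2). There 25 probe sets met the rule, with 4 calls between ecotypes (9.80% of all probe sets) and 0 in Col-0 (0.0264%). The 1 call in WS under backward tilt was 2 without the arrays that deviated most and 1 to 2 with 1 array left out. The 1 call in Col-0 was 0 with a pseudocount of 1, with only the compared groups, without both arrays with the highest r2 actin ratio, and 0 to 1 with 1 array left out.

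With the replicate number as a block, the calls were 8 between ecotypes (12.2% of all probe sets), 1 in WS (0.897%) and 0 in Col-0 (0.0176%). The numbers did not pair the arrays: the correlation of deviations between same-numbered arrays had a median of -0.00285 over 45 pairs (-0.229 to 0.146), and 5 of 18 arrays were closest to their own number. The WS forward change of every member and the differences of the called members kept their sign in every alternative that gave a value. The Col-0 forward change, which lay near 0, changed sign for 6 to 10 members when 1 upright or forward Col-0 array was left out, and the members' median of -0.07 became 0.02 without Col-0 Agp 135° replicate 1. Signals near the pseudocount limit the dim members most, and RMA values and promoter motifs were not analysed here.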
